A study of Mus musculus with 10 samples.

Results

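The 7 genes described here encode Fc receptors and the ITAM adaptors that carry their signals. They are the adaptors Fcer1g and Tyrobp, the Fcγ receptors Fcgr1, Fcgr2b, Fcgr3 and Fcgr4, and the α chain of the high-affinity IgE receptor, Fcer1a. They were chosen by name, and each was found by its Entrez gene ID among the 27179 genes counted in EM γδ T cells. After the filter on low counts 6 of the 7 could be tested for a difference between groups, and Fcgr1 could not. The cells were sorted from spleens as CD3+ γδTCR+ CD62L- CD44+ cells, and 1 library was made from each of 10 female C57BL/6 mice. The 5 pre-exposed mice had received 50000 red blood cells infected with Plasmodium chabaudi at an age of 6 to 8 weeks, and the 5 naïve mice had not been infected. Both groups were given chloroquine and pyrimethamine, each injected at 10 mg/kg on day 14 or at the matching time, and then the same drugs in water for 5 days. Spleens were taken 12 weeks after the end of treatment, and the comparison asks which genes still differed in resting EM γδ T cells at that time.

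Fc receptors bind the constant part of antibodies. Most activating receptors have no signalling motif of their own and depend on a small partner chain, the FcR common γ chain encoded by Fcer1g, whose paired tyrosines (the immunoreceptor tyrosine-based activation motif, ITAM) recruit Syk-family kinases. Tyrobp encodes DAP12, a partner chain of the same kind for receptors of NK and myeloid cells, whereas FcγRIIb, encoded by Fcgr2b, carries an inhibitory motif (ITIM) in its own tail. Fcer1g and Tyrobp are also known from NK cells and NK-like lymphocytes, while the receptors are mainly known from myeloid cells, B cells or, for Fcer1a, basophils and mast cells.

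The signalling motifs are shown because the ITAM separates the adaptors from the receptors, of which Fcgr2b carries an ITIM of its own. A search of the coding sequences of the principal transcripts (GENCODE M21, GRCm38) found 1 ITAM each in Fcer1g and Tyrobp and none in Fcgr1, Fcgr2b, Fcgr3, Fcgr4 or Fcer1a. Cd247, the ζ chain of the T cell receptor complex, had 3. Both motifs of the adaptors span 45 bases of coding sequence over exons 4 and 5. That of Fcer1g lies between chr1:171229889-171230072 (minus strand) and ends 7 codons before the end of the coding sequence. That of Tyrobp lies between chr7:30415670-30417382 (plus strand) and ends 8 codons before it. The ITIM of Fcgr2b is coded in exon 8 at chr1:170961071-170961088 (minus strand). The sequences are given 5′ to 3′ on the coding strand, with the tyrosine codons of each motif in capitals:
Fcer1g ITAM: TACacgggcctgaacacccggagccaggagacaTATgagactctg
Tyrobp ITAM: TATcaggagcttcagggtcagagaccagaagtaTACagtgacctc
Fcgr2b ITIM: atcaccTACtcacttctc

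Libraries of naïve mice held 6587199 to 19993444 counts and those of pre-exposed mice 8747888 to 22542832. Levels are given in CPM, a gene's count relative to the total of its library, with TMM scaling of the library sizes. The TMM factor was 0.680 in pre-exposed mouse 5 and 0.999 to 1.11 in the other libraries, so the CPM of that mouse are raised by the scaling. The 8 γδ T cell markers, among them Trdc and the Trgc genes, had counts in every library, but their level was uneven. Their sum ranged from 6716 to 11434 CPM among naïve libraries. Pre-exposed mouse 1 lay below this range, at 4580 CPM, and its Trdc was at 1141 CPM against a naïve minimum of 1826 CPM. Pre-exposed mouse 3 (11999 CPM) and mouse 5 (15190 CPM) lay above the range of the sums, and mice 2 and 4 lay within it. These sums also hold the CD3 chains. Trgc1 alone had 337, 521, 744 and 540 CPM in pre-exposed mice 1 to 4, all below the naïve minimum of 820 CPM, and 1089 CPM in mouse 5. It was not called by edgeR, with a log2 fold change of -0.59. Trdc lay within its naïve range in pre-exposed mice 2 to 5. Gene length moved with the groups. Spearman's rho across the 12655 genes tested, between a gene's length and its deviation from its mean level, was 0.259 to 0.413 in naïve mice, 0.273 in pre-exposed mouse 1 and -0.536 to -0.136 in pre-exposed mice 2 to 5. The labels of pre-exposed mice 2 to 4 lack the index pair that all other labels carry, and values are therefore also given for those 3 mice and for mice 1 and 5 separately.

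Transcripts of Fc receptors and their adaptors were more abundant in pre-exposed EM γδ T cells. All 6 tested members, Fcer1g, Tyrobp, Fcgr2b, Fcgr3, Fcgr4 and Fcer1a, rose by edgeR's quasi-likelihood test, and none fell. Over all genes tested 6.3% were called, 5.12% as higher, and 24.3% had an unadjusted p under 0.05. Fcgr2b, Fcgr3 and Fcgr4 exceeded the filter's level of 0.741 CPM in 4, 2 and 2 naïve and in 5 pre-exposed libraries, and Fcer1a in 1 naïve and 4 pre-exposed libraries. The last 3 therefore entered the test mainly through the group in which they were higher, and their calls are no independent support for a direction. By the stricter voom and TREAT test against a fold change of 1.5, 0 of the 6 were called at an adjusted p under 0.05 and 6 at an unadjusted p under 0.05. TREAT called 0.0158% of all genes, and 6.97% had an unadjusted p under 0.05. Each of the 7 genes had an exact permutation p under 0.05, as had 20.1% of all genes tested, 11.2% in the higher direction. In RNA of sorted bulk cells, more cells of a type and more RNA per cell cannot be told apart.

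**Figure D1:**
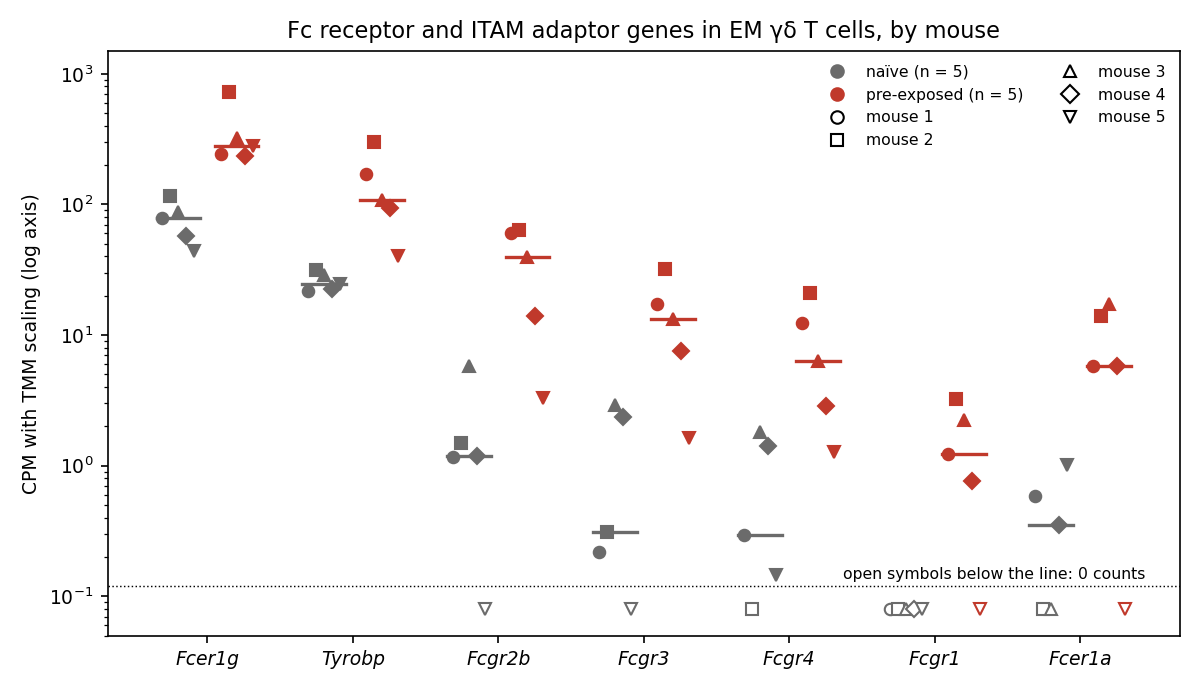
Level of each of the 7 genes in every library, in CPM on a log axis, with naïve mice in grey and pre-exposed mice in red (5 each). Symbols mark the mouse number within its group, horizontal bars the group median, and open symbols libraries with 0 counts. Fcer1g and Tyrobp do not overlap between the groups, and pre-exposed mouse 5 has the lowest pre-exposed value of every member except Fcer1g.

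Fcer1g, the FcR common γ chain, was the most abundant member. Naïve mice 1 to 5 had 79.2, 115, 87.0, 57.2 and 43.8 CPM, and pre-exposed mice 1 to 5 had 243, 720, 325, 235 and 282 CPM. Every pre-exposed mouse was above every naïve mouse, which held for 2.77% of all genes tested in the higher direction. The means were 76.5 ± 27.7 and 361 ± 204 CPM (SD, n = 5 each). The log2 fold change was 2.23 ± 0.36 (SE), with an adjusted p of 0.00818 by edgeR's quasi-likelihood test. An exact permutation test of mean log2 CPM gave p = 0.00794, two-sided, which is the smallest that 5 against 5 libraries allow. By TREAT the adjusted p was 0.124. The 720 CPM of pre-exposed mouse 2 stood apart from the other pre-exposed mice, and without this mouse the log2 fold change was 1.81 ± 0.29 (adjusted p = 0.0231 by edgeR).

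Tyrobp, which encodes DAP12, had 21.7, 31.3, 28.6, 22.6 and 24.4 CPM in naïve mice 1 to 5. Its levels were 170, 303, 109, 93.1 and 40.0 CPM in pre-exposed mice 1 to 5. The naïve values lay close together, at 25.7 ± 4.12 CPM, and the pre-exposed values were spread over 143 ± 101 CPM (SD, n = 5 each). The groups did not overlap with TMM scaling. Without that scaling pre-exposed mouse 5 had 25.1 CPM, within the naïve range of 20.7 to 30.3, and 4 of 5 pre-exposed mice were above all naïve mice. Tyrobp rose with a log2 fold change of 2.48 ± 0.42 (adjusted p = 0.00927 by edgeR, exact permutation test p = 0.00794), and its adjusted p by TREAT was 0.262.

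The other membrane adaptors show what changed around these partner chains. Hcst, which encodes DAP10, the partner of the NKG2D receptor Klrk1, averaged 127 ± 23.1 CPM in naïve and 260 ± 53.7 CPM in pre-exposed mice. Hcst rose by 1.04 ± 0.23 on the log2 scale (adjusted p = 0.0225 by edgeR), and every pre-exposed mouse was above the naïve mice. The call of Hcst was lost without naïve mouse 1, 2 or 4 or pre-exposed mouse 2, with an adjusted p of up to 0.0783 by edgeR, and with the length trend removed. Cd247, which can pair with the FcR γ chain in NK cells and carries the T cell receptor's signal, had 454 ± 42.9 CPM in naïve and 436 ± 143 in pre-exposed mice, a log2 fold change of -0.06 ± 0.24 (adjusted p = 0.910 by edgeR). Among the CD3 chains, Cd3d was called at 1.02 ± 0.28 (adjusted p = 0.0459 by edgeR), but not without any 1 of 8 libraries, all but pre-exposed mice 1 and 5. Cd3e had a log2 fold change of 0.63 ± 0.25 (adjusted p = 0.140) and Cd3g one of 0.94 ± 0.34 (adjusted p = 0.109), both by edgeR. In all, 3 of the 7 other adaptors rose, Hcst, Cd3d and the B cell receptor chain Cd79a, and none fell. The call of Cd79a was lost without any 1 naïve mouse or pre-exposed mouse 2. The median log2 fold change of these 7 was 0.94, beside 0.02 over all genes tested.

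Ratios of reads per kb within a library do not depend on the scaling between libraries, but they do carry the trend with gene length, since Fcer1g has 658 bases, Cd247 4604 and Cd3e 1436. The ratios were not corrected for it. Fcer1g to Cd247 was 0.588 to 1.73 in naïve mice and 2.66 to 9.93 in pre-exposed mice, with 6.23 in pre-exposed mouse 5. Fcer1g to Cd3e was 0.132 to 0.383 in naïve and 0.406 to 1.17 in pre-exposed mice. Neither ratio overlapped between the groups, and their log2 means differed by 2.30 and 1.62 (exact permutation test p = 0.00794 each, 0.0159 after adjustment over 4 ratios). Tyrobp to Fcer1g was 0.314 to 0.645 and 0.164 to 0.812, and Tyrobp to Hcst 0.120 to 0.248 and 0.100 to 0.830, with pre-exposed mouse 5 lowest in both. Their log2 means differed by 0.0096 and 1.16 (exact permutation test p = 0.976 and 0.103, adjusted 0.976 and 0.138). The 4 ratios were chosen after seeing the data.

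**Figure D2:**
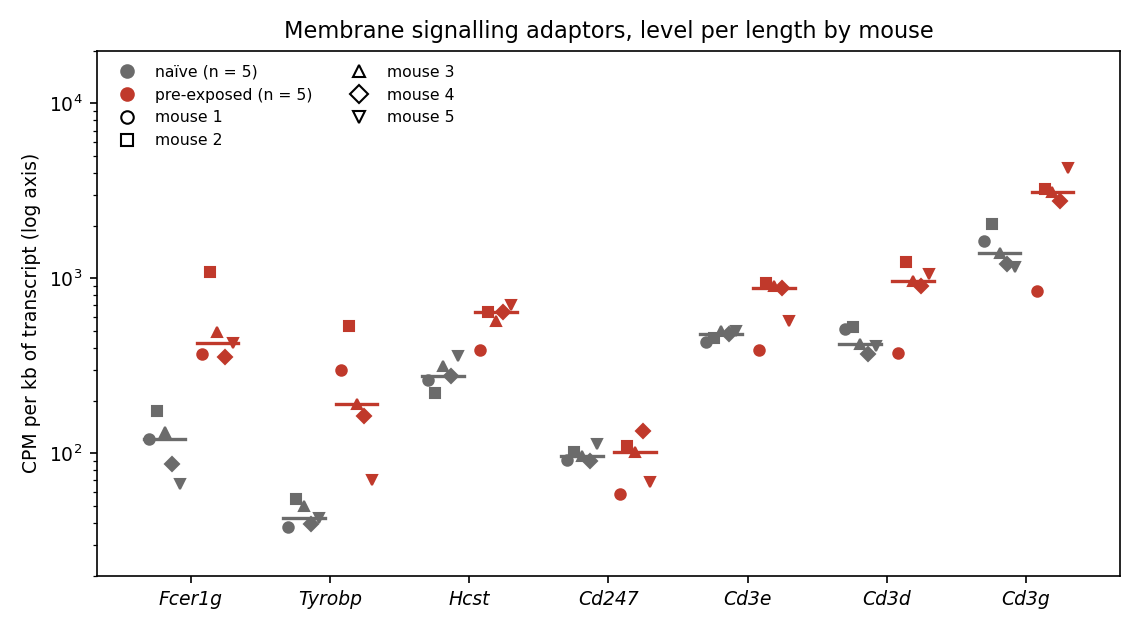
Level per length of 7 membrane adaptors in every library, in CPM per kb of transcript on a log axis. Naïve mice are grey and pre-exposed mice red (5 each), with symbols for the mouse number and bars at the group medians. Fcer1g lies above the naïve range in all 5 pre-exposed mice, whereas the 2 groups overlap for Cd247.

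The activating Fcγ receptors had few reads in naïve mice, with at most 43 of Fcgr3 and 27 of Fcgr4, both in naïve mouse 3. Fcgr3, the low-affinity receptor FcγRIII known from NK and myeloid cells, had 0.220, 0.310, 2.89, 2.36 and 0 CPM in naïve mice 1 to 5. The levels of pre-exposed mice 1 to 5 were 17.3, 31.9, 13.3, 7.56 and 1.64 CPM. The value of pre-exposed mouse 5 rested on 9 reads and lay below those of naïve mice 3 and 4, and the other 4 pre-exposed mice were above all naïve mice. Fcgr3 rose with a log2 fold change of 3.66 ± 0.76 (adjusted p = 0.0190 by edgeR), and the exact permutation test gave p = 0.0238. Its adjusted p by TREAT was 0.369. The call was lost without naïve mouse 1, 2 or 5 or pre-exposed mouse 2 (adjusted p of 0.0537 to 0.0780 by edgeR), and without naïve mouse 3 the log2 fold change was 4.50.

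Fcgr4, the receptor FcγRIV of monocytes, macrophages and neutrophils, had 0.294, 0, 1.82, 1.42 and 0.144 CPM in naïve mice 1 to 5. Pre-exposed mice 1 to 5 had 12.5, 21.0, 6.29, 2.84 and 1.27 CPM. As for Fcgr3, pre-exposed mouse 5 lay within the naïve range and the other 4 mice above it. Fcgr4 rose with a log2 fold change of 3.66 ± 0.81 (adjusted p = 0.0223 by edgeR, exact permutation test p = 0.0238), and its adjusted p by TREAT was 0.421. This call was the least stable. It was lost without naïve mouse 1, 2, 4 or 5 or pre-exposed mouse 2 (adjusted p of 0.0542 to 0.0870 by edgeR). The log2 fold change was 4.55 without naïve mouse 3 and 3.02 without pre-exposed mouse 2.

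Fcgr1, the high-affinity IgG receptor FcγRI, had 0 reads in all 5 naïve libraries and 13, 67, 28, 11 and 0 reads in pre-exposed mice 1 to 5, which are 1.24, 3.26, 2.23, 0.763 and 0 CPM. A count of 0 allows up to 3 reads, here taken over the naïve group (0.0475 CPM). Over the pooled reads Fcgr1 was therefore at least 39.5-fold higher in pre-exposed mice, a limit that covers counting error only. Pre-exposed mouse 2 held 67 of the 119 reads, and without it the bound was 25.5-fold. Since Fcgr1 exceeded the filter's level in only 4 libraries it was not in the fit over all genes, and the exact permutation test gave p = 0.0476. Per length it had the lowest mean of the 7 genes in pre-exposed mice.

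Fcgr2b, the inhibitory receptor FcγRIIb, had 1.17, 1.5, 5.78, 1.18 and 0 CPM in naïve mice 1 to 5. The levels of pre-exposed mice 1 to 5 were 60.4, 63.5, 39.4, 14.1 and 3.27 CPM. Naïve mouse 3 was above pre-exposed mouse 5, and 4 of 5 pre-exposed mice were above all naïve mice. Fcgr2b rose with a log2 fold change of 4.11 ± 0.75 (adjusted p = 0.0121 by edgeR, exact permutation test p = 0.0159), and its adjusted p by TREAT was 0.423. The call was lost without naïve mouse 1 (adjusted p = 0.0551) or pre-exposed mouse 2 (adjusted p = 0.0503), and the log2 fold change was 5.08 without naïve mouse 3, all by edgeR. The inhibitory receptor and the tested activating ones rose together. Fcgr2b took 66.1%, 53.1%, 64.4%, 55.8% and 52.9% of the reads of the 4 Fcγ receptors in pre-exposed mice 1 to 5, the last from 18 reads of Fcgr2b and 16 of the other receptors. Naïve libraries held 0 to 86 reads of Fcgr2b and 1 to 70 of the others, too few for a comparison of this share. Of the 50-base windows of Fcgr3 transcripts 10.2% also occur in Fcgr2b, and 6.72% of those of Fcgr2b occur in Fcgr3 or other genes, so that part of the reads of these paralogs could have been assigned to either or left out.

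Fcer1a, the IgE-binding chain of FcεRI, had 0.587, 0, 0, 0.354 and 1.01 CPM in naïve mice 1 to 5. Pre-exposed mice 1 to 4 had 5.80, 14.1, 17.2 and 5.76 CPM, and pre-exposed mouse 5 had 0 reads. Fcer1a rose with a log2 fold change of 4.86 ± 0.88 (adjusted p = 0.00926 by edgeR), and its adjusted p by TREAT was 0.570. The exact permutation test gave p = 0.0476 with a prior count of 2 and p = 0.103 with a prior count of 0.5. Ms4a2, the β chain of FcεRI in mast cells and basophils, had 0.0694 to 0.285 CPM in the 4 mice with Fcer1a reads, 0 in pre-exposed mouse 5 and 1.89 CPM in naïve mouse 4, and was not tested. Mcpt8, a basophil protease picked from the basophil list after its values were seen, had 0 to 0.289 CPM in naïve mice, and 17.0, 27.3, 15.2, 9.02 and 0.182 CPM were found in pre-exposed mice 1 to 5. It was thus high in the same 4 mice as Fcer1a. The rest of that list was mixed. Gata2 had 0 counts in pre-exposed mouse 5, and its level was 1.03 to 3.02 CPM where Fcer1a was high. Naïve libraries held 0 to 1.30 CPM of it, so the ranges overlapped. Of the 10 listed genes, 1 or 2 had 0 counts in each mouse with high Fcer1a. This number was 6 in pre-exposed mouse 5 and 4 to 6 in naïve mice. Some genes of the list did not follow Fcer1a. Kit averaged 34.2 ± 18.7 CPM in naïve and 17.3 ± 11.1 CPM in pre-exposed mice, Mcpt4 had 0 counts in every library, and Cpa3 and Hdc were above all naïve mice in pre-exposed mouse 5, which had no Fcer1a reads. The part of such cells in the result was not tested.

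Per length, the order of the members was largely the same in both groups. Fcer1g was the highest and Tyrobp second in 10 of 10 libraries. In naïve mice the means were 116 ± 42.2 and 45.2 ± 7.24 CPM per kb, and the 4 receptors below them had 1.25 ± 1.44 (Fcgr2b), 0.855 ± 1.01 (Fcgr3), 0.587 ± 0.660 (Fcgr4) and 0.381 ± 0.417 (Fcer1a) CPM per kb, which did not differ beyond their spread. In pre-exposed mice Fcer1g had 548 ± 310 and Tyrobp 251 ± 177 CPM per kb. Fcgr2b came next in all 5 pre-exposed libraries, at 23.4 ± 17.5 CPM per kb. Fcgr3 (10.6 ± 8.48), Fcer1a (8.36 ± 6.79) and Fcgr4 (7.02 ± 6.46) did not differ beyond their spread, and Fcgr1 was at 0.578 ± 0.492 CPM per kb (SD, n = 5 each). Both adaptors therefore exceeded the receptors in every library, naïve and pre-exposed.

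The profiles of the members over the 10 libraries fell into similar shapes to different degrees. Likeness was measured as the root mean square difference of log2 CPM (prior count 2) after centring each gene on its mean. Fcer1g and Tyrobp differed by 0.596, Fcgr3 and Fcgr4 by 0.700 and Fcgr2b and Fcgr3 by 0.834, whereas Fcer1a differed from every other tested member by 1.68 to 2.17. The median over all genes was 1.36 for Fcer1g and 2.60 for Fcer1a. The genes most like Fcer1g were Scimp (0.416), Ifi27l2a (0.422) and Ly6c1 (0.427). Each had, like Fcer1g, a pre-exposed mouse 5 above the naïve mice, with 23.6 CPM of Scimp against 2.48 to 3.62 in naïve mice and 233 CPM of Ifi27l2a against 44.3 to 68.4. The nearest to Tyrobp were Csf2ra (0.359), Gm21370 (0.399) and Napsa (0.433). Csf2ra, a receptor chain for GM-CSF, had 12.7 CPM in pre-exposed mouse 5, within the naïve range of 8.86 to 14.4, and 27.6 to 84.9 in the other pre-exposed mice. Sirpb1a (0.762), Lmo2 (0.826) and Fcgr3 itself were nearest to Fcgr2b. Ifitm2 (0.514), Cd300lb (0.564) and Lmo2 (0.685) were nearest to Fcgr3, and C920021L13Rik (0.496), Rnase6 (0.544) and Ly86 (0.626) to Fcgr4. For Fcer1a the nearest, Rab30 (0.890), Neurl1b (1.06) and H2-DMb2 (1.08), were farther away. These distances describe 10 libraries of 2 groups and were not tested.

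Markers of some other cell types, among them conventional dendritic cells, moved with most of the receptors, but not those of every type. The 9 conventional dendritic cell markers summed to 147 to 288 CPM in naïve mice. Their sums in pre-exposed mice 1 to 5 were 817, 1468, 739, 640 and 239 CPM, and 6 of the 9 rose by edgeR. Of the 9 tested monocyte and macrophage markers 5 rose, and Ccr2, a chemokine receptor that gave 83.0% to 94.8% of the naïve sums, had a log2 fold change of -0.85 ± 0.27 (unadjusted p = 0.00665, adjusted p = 0.0715 by edgeR). The 11 listed markers other than Ccr2 summed to 40.5 to 180 CPM in naïve mice. In pre-exposed mice 1 to 5 they summed to 1089, 1526, 712, 349 and 60.0 CPM. The 10 neutrophil markers summed to 0.465 to 31.4 CPM and to 111, 406, 43.8, 6.52 and 1.09 CPM, with 1 of 3 tested called as higher. Of the plasmacytoid dendritic cell markers 3 of 7 rose, of the B cell markers 2 of 5, and of the mast cell and basophil markers and the platelet markers 0 of 4 and 0 of 2 (2 and 1 with an unadjusted p under 0.05 by edgeR). Immunoglobulin genes, which were left out of the tests, took 0.0845% to 0.737% of the counts of a naïve library. Pre-exposed mice 1 to 5 had shares of 4.50%, 6.68%, 1.70%, 0.556% and 0.345%. This share was highest in pre-exposed mice 1 to 3, in which Fcgr2b was also highest, as was every other member except Fcer1g. The sums of the B cell markers did not follow the share. Naïve libraries held 103 to 168 CPM of these markers. Pre-exposed mouse 4 had the highest sum, 182 CPM, and mice 1, 2, 3 and 5 had 112, 176, 122 and 83.4 CPM. Most of the summed level came from Cd79b and Cd22, and Cd79b averaged 67.4 CPM in naïve and 69.6 CPM in pre-exposed mice. The 2 called markers were highest in pre-exposed mice 1 to 3, like the share. Cd79a had 21.7, 20.5, 3.90, 2.22 and 1.09 CPM and Ms4a1 6.66, 3.80, 2.07, 1.80 and 0 CPM in pre-exposed mice 1 to 5. Bank1 did not follow it, with 0.0796 CPM in mouse 3 and 2.91 CPM in mouse 5. In pre-exposed mouse 1, Csf1r, a monocyte and macrophage receptor that was called by edgeR (adjusted p = 0.0412), had 99.1 CPM against 0.517 to 11.5 in naïve mice. The part of such cells in the levels of the members was not tested.

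Fcer1g stood apart from the other members in pre-exposed mouse 5. The sums of conventional dendritic cell, plasmacytoid dendritic cell and neutrophil markers lay within the naïve ranges there, and that of B cell markers lay below them. Without Ccr2 the monocyte and macrophage markers summed to 60.0 CPM, within the naïve range. Without Kit, a mast cell gene that supplied 55.5% to 84.1% of the naïve sums, the mast cell and basophil markers summed to 20.5 CPM in this mouse, against 7.51 to 14.9 CPM in naïve mice and 41.4 to 88.0 CPM in the other pre-exposed mice. In this mouse 9 of 10 neutrophil markers, 6 of 10 mast cell and basophil markers, 6 of 10 B cell markers, among them Ms4a1 and Pax5, and 4 of 12 monocyte and macrophage markers, among them Cd14 and C1qa, had 0 counts. Csf1r was at 0.545 CPM. Other markers were above all naïve mice there. They were Flt3 (6.00 CPM) and Clec9a (1.45 CPM) of conventional dendritic cells, Adgre1 (14.4 CPM) of macrophages, Cpa3 (12.2 CPM) and Hdc (8.18 CPM) of mast cells and basophils, Bank1 (2.91 CPM) of B cells, and Klk1, Cox6a2 and Tcf4 of the plasmacytoid dendritic cell list (0.908, 45.2 and 24.2 CPM). Fcer1g in this mouse was at 282 CPM, above all naïve mice, and also without TMM scaling (178 CPM against at most 112), whereas Tyrobp without that scaling was within the naïve range. The 10 NK cell markers summed to 4765 CPM in this mouse, against 810 to 1965 CPM in naïve mice and 1050 to 2605 in the other pre-exposed mice, and 6 of them were above all naïve mice. Klre1 alone gave 3118 CPM of this sum, and without it the sum was 1648 CPM, against 533 to 1266 CPM in naïve mice and 1970 CPM in pre-exposed mouse 3. Among the NK markers 2 of 10, Gzma and Klra8, rose over the whole comparison. The call of Gzma was lost without any 1 naïve mouse or pre-exposed mouse 1, 2 or 3 (adjusted p of up to 0.128 by edgeR). Gzma had 56.3 CPM in pre-exposed mouse 4, below the naïve range of 73.0 to 165 CPM.

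**Figure D3:**
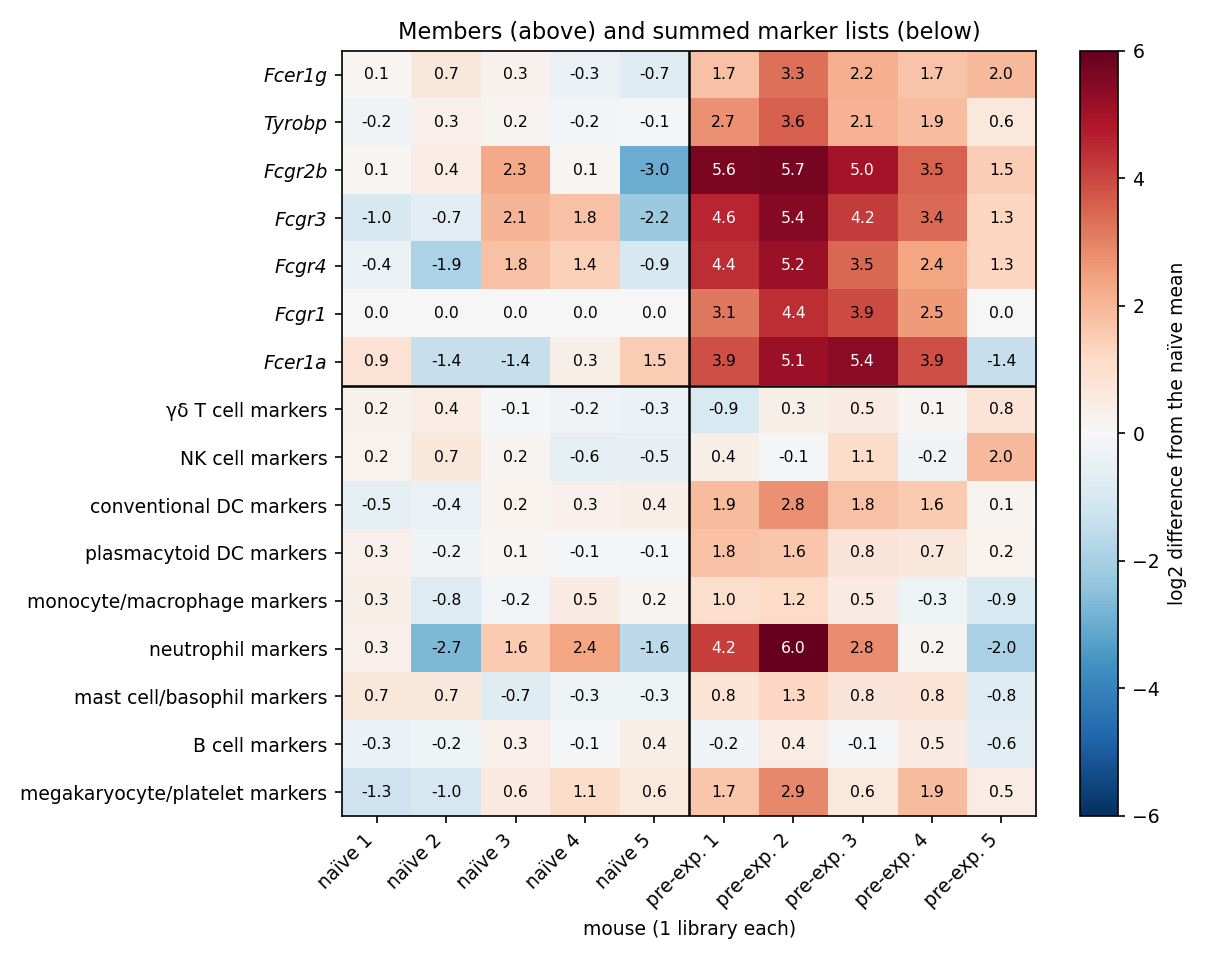
Log2 difference of each library from the naïve mean, for the 7 genes (log2 CPM with a prior count of 2) and for the summed CPM of 9 marker lists, in 5 naïve and 5 pre-exposed mice. In pre-exposed mouse 5 Fcer1g is 1.96 above the naïve mean and the conventional dendritic cell markers 0.15, whereas in pre-exposed mice 1 to 4 both are raised. The plotted sums hold every listed gene, so Ccr2 dominates the naïve values of the monocyte and macrophage row, Kit the naïve values of the mast cell and basophil row, and Klre1 the NK cell value of pre-exposed mouse 5. Cd79b and Cd22 make up most of the B cell row.

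The estimates and calls varied with the pre-exposed mice that were compared, and the difference between the subsets was not tested. Pre-exposed mice 1 and 5 form the smaller subset, and fewer libraries make a call less likely. Against all naïve mice, pre-exposed mice 2 to 4 gave a log2 fold change of 2.43 ± 0.34 for Fcer1g, 2.67 ± 0.33 for Tyrobp, 4.14 ± 0.56 for Fcgr2b, 3.94 ± 0.64 for Fcgr3, 3.87 ± 0.75 for Fcgr4 and 5.34 ± 0.67 for Fcer1a, with all 6 called by edgeR. In that comparison edgeR called 3777 of the 12655 genes tested. Pre-exposed mice 1 and 5 gave 1.83 ± 0.33, 2.08 ± 0.42, 3.99 ± 0.89, 3.17 ± 0.92, 3.42 ± 0.91 and 3.52 ± 1.07 in the same order. Of these, 0 were called at an adjusted p under 0.05 and 6 at an unadjusted p under 0.05, and edgeR called 23 genes in all. Without pre-exposed mouse 5 all 6 were called by edgeR, and TREAT called Fcer1g, Tyrobp and Fcer1a (adjusted p = 0.0335, 0.0120 and 0.0403). Over all genes edgeR then called 1870 and TREAT 137. With sample quality weights in voom TREAT called 5 of the 6, all but Fcgr4, and it also called those 5 in pre-exposed mice 2 to 4. Over all genes TREAT called 287 with these weights and 591 in pre-exposed mice 2 to 4.

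Gene length mattered most for the adaptors, which are the shortest of the 7 genes, with 658 bases for Fcer1g and 569 for Tyrobp against 1026 to 2589 for the receptors. After the trend with gene length was removed from every library, the log2 fold change of Fcer1g was 1.46 ± 0.32 (adjusted p = 0.0418) and that of Tyrobp 1.79 ± 0.47 (adjusted p = 0.0705), so that Tyrobp was no longer called by edgeR. Fcgr2b, Fcgr3 and Fcer1a remained called at 3.88 ± 0.75, 3.31 ± 0.76 and 4.35 ± 0.90, and Fcgr4, at 3.28 ± 0.81, was not (adjusted p = 0.0557 by edgeR). The direction was the same for all 6 under every setting tried.

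**Figure D4:**
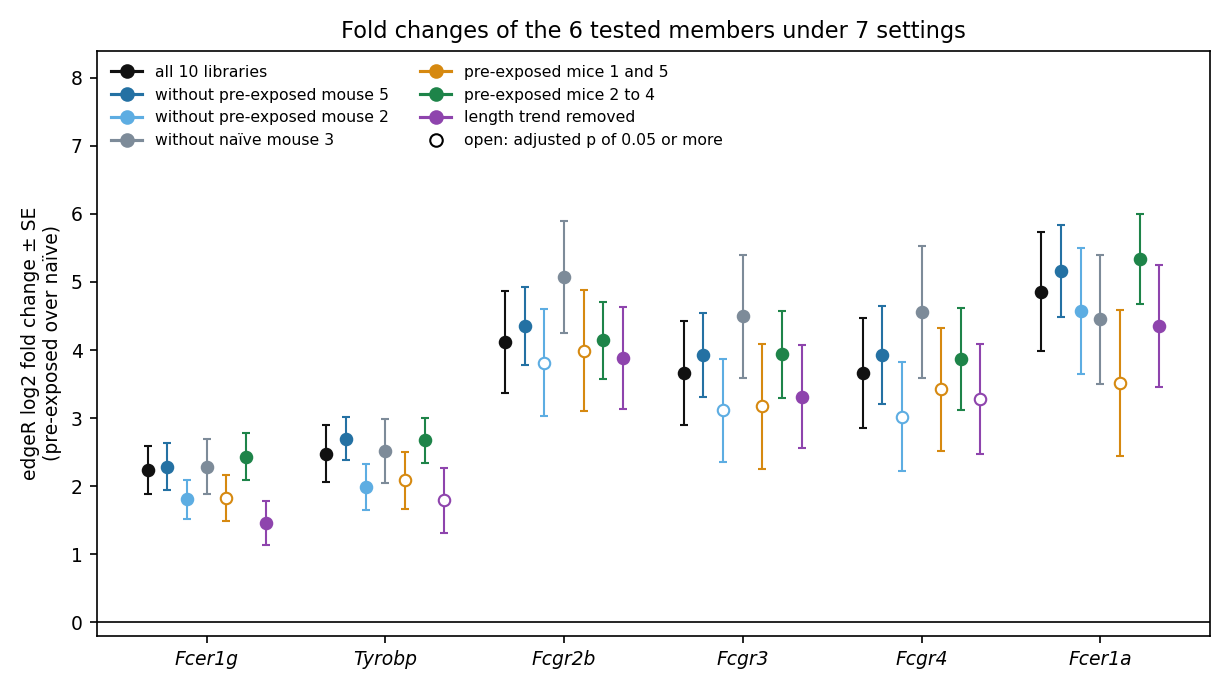
Log2 fold change ± SE from edgeR's quasi-likelihood test for the 6 tested members with all 10 libraries and under 6 other settings. Filled symbols have an adjusted p under 0.05 over all genes tested and open symbols do not. All values are above 0, and the adaptors Fcer1g and Tyrobp drop most when the length trend is removed, to 1.46 and 1.79.

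Receptors listed as partners of the adaptors were compared next, by the kind of cell they are known from. Of 16 tested partners of Fcer1g or Tyrobp from myeloid cells, 11 rose and none fell, with a median log2 fold change of 3.59. These 16 are the ones that passed the filter among 25 counted. Some, such as Cd300lb (0 to 2.89 CPM in naïve mice), passed it mainly through the pre-exposed libraries. The count and the median are therefore no independent support for a direction. Clec4n, which encodes Dectin-2 and signals through the FcR γ chain, had 0 reads in naïve mice and 1.25 to 2.95 CPM in pre-exposed mice. It was at least 41.5-fold higher over the pooled reads and was called by both edgeR (adjusted p = 0.0132) and TREAT (adjusted p = 0.0390), though not by DESeq2, and TREAT called 0 genes without naïve mouse 1. It passed the filter only through the pre-exposed libraries, so its calls are no independent support for a direction. With Clec4n at this bound the list's median was also 3.59. Sirpb1a, whose product signals through DAP12, rose from 1.86 ± 1.62 CPM in naïve to 31.0 ± 19.9 CPM in pre-exposed mice (log2 fold change 4.00 ± 0.65, adjusted p = 0.00904 by edgeR), and the change was 4.67 without naïve mouse 3. Clec4n and Sirpb1a kept their edgeR call without any single library. Of 12 tested receptors of the NK list only Klra8, the activating receptor Ly49H, rose (3.51 ± 0.72, adjusted p = 0.0185 by edgeR), and the median was 0.65. The NK list is wider and also holds receptors not known to pair directly with either adaptor. Klra8 had 70.7 CPM in pre-exposed mouse 5 and 4.19 to 14.2 in the other pre-exposed mice. Its log2 fold change was 2.29 without pre-exposed mouse 5, and its call was lost without naïve mouse 1, 2, 4 or 5 (adjusted p of up to 0.0671 by edgeR). All 12 receptors of the NK list passed the filter, unlike those of the myeloid list, and the difference between the 2 lists was not tested.

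The downstream kinases gave a mixed picture. Of 30 tested kinases and effectors 5 rose by edgeR, namely Syk, Lyn, Btk, Blnk and Plcg2, which are known from B and myeloid cells, and none fell. Their list had a median log2 fold change of 0.07. Btk rose from 0.482 ± 0.558 to 10.3 ± 10.1 CPM and Syk from 1.85 ± 1.55 to 14.7 ± 14.8 CPM. Btk exceeded the filter's level in 1 naïve and 4 pre-exposed libraries, so its call is no independent support for a direction. Pre-exposed mouse 5, in which Fcer1g was above all naïve mice, had 0 CPM of Btk and 0.363 CPM of Syk. The calls of Syk, Lyn, Btk and Plcg2 were lost without naïve mouse 1 or 2 or pre-exposed mouse 2, those of Syk, Lyn and Plcg2 without any naïve mouse, those of Lyn and Plcg2 also without pre-exposed mouse 3 and that of Plcg2 without pre-exposed mouse 4. The log2 fold change of Btk was 4.65 ± 0.92, and 5.41 without naïve mouse 4, and that of Syk 3.11 ± 0.77, and 2.37 without pre-exposed mouse 1. Zap70, the kinase that T and NK cells use at ITAMs, had 139 ± 44.4 CPM in naïve and 133 ± 49.0 CPM in pre-exposed mice, a log2 fold change of -0.06 ± 0.32 (adjusted p = 0.936 by edgeR). Of 11 phosphatases and SH2 adaptors 2 rose, Sh2d1b1 (2.51 ± 0.60) and Dok3 (3.03 ± 0.76), with a median of 0.15. Both calls were lost without naïve mouse 1, 2, 4 or 5 or pre-exposed mouse 2 or 3 (adjusted p of up to 0.105 by edgeR), and Dok3 was at 3.69 without naïve mouse 3.

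Inhibitory receptors rose beside Fcgr2b. Of 18 other tested receptors with an ITIM or a related tail 8 rose and none fell, with a median log2 fold change of 1.44. Clec4a2, which encodes the lectin DCIR, had 0 CPM in 4 naïve mice and 0.722 in naïve mouse 5, while pre-exposed mice 1 to 5 had 14.3, 13.2, 12.7, 2.57 and 7.81 CPM. It was called at an adjusted p of 0.00204 by edgeR, but it too passed the filter only through the pre-exposed libraries, and the call is no independent support for a direction. Its log2 fold change was 6.80 ± 0.90 and 10.1 without naïve mouse 5, when only libraries at 0 remained on the naïve side. Siglecg, an inhibitory lectin of B cells, rose from 0.480 ± 0.459 to 10.4 ± 6.48 CPM (4.68 ± 0.82, adjusted p = 0.00904 by edgeR, and 5.27 without naïve mouse 3). It had 0 reads in pre-exposed mouse 5. Siglecg exceeded the filter's level in 2 naïve and 4 pre-exposed libraries, and the same limit holds for its call. Klrg1, an ITIM receptor of NK and effector T cells, rose from 8.59 ± 4.15 to 57.7 ± 45.9 CPM (2.78 ± 0.57, adjusted p = 0.0184 by edgeR), and Cd300a rose by 3.97 ± 0.79 (adjusted p = 0.0172 by edgeR). Their calls were lost without naïve mouse 1 or 2 or pre-exposed mouse 2, and that of Klrg1 also without naïve mouse 4 (adjusted p of up to 0.0681 by edgeR). Of the 6 other tested Fc receptors and relatives 3 rose, with a median of 1.80. Fcrla, an Fc receptor-like protein of B cells, did so whichever library was left out (4.47 ± 0.81, 5.13 without naïve mouse 1). It exceeded the filter's level in 2 naïve and 5 pre-exposed libraries, so this call too is no independent support for a direction. Fcgrt and Fcrl6 lost their calls without pre-exposed mouse 2 or 3 or any naïve mouse, and Fcgrt also without pre-exposed mouse 1. The log2 fold change of Fcrl6 was 2.35 ± 0.62, and 1.49 without pre-exposed mouse 5, which had 148 CPM. Among 34 other called genes taken from the lists by their p, 20 were still called with the length trend removed, 6 were still called without naïve mouse 1, 7 without naïve mouse 2 and 8 without pre-exposed mouse 2.

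**Figure D5:**
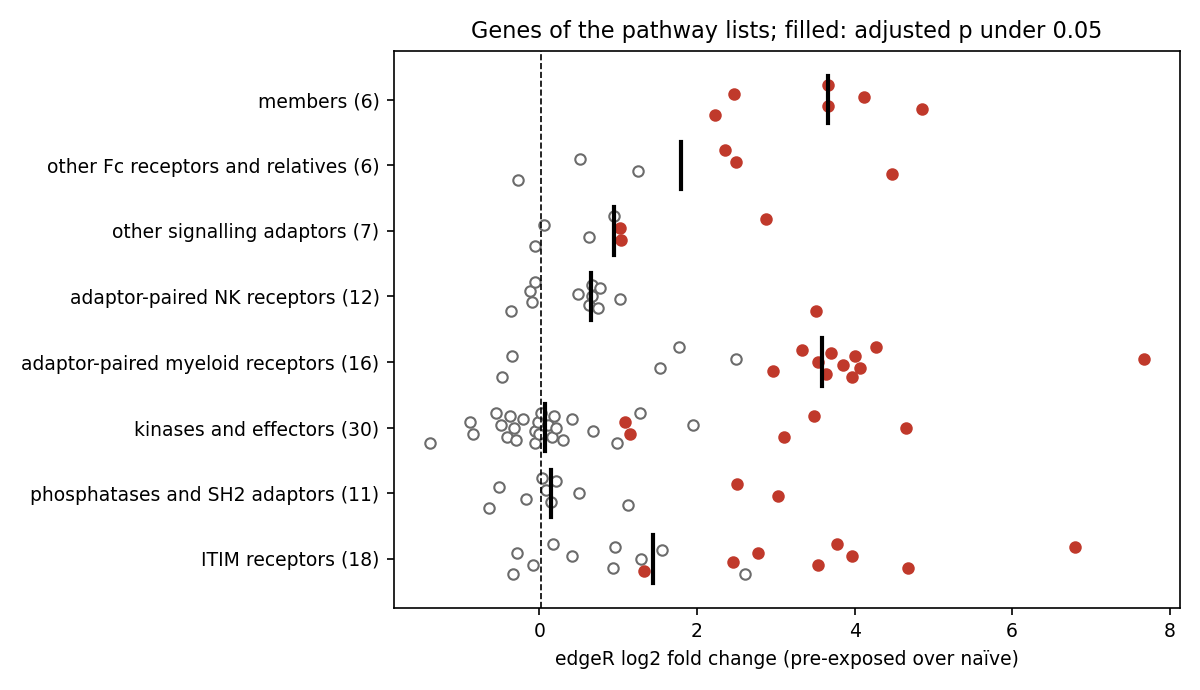
Log2 fold change from edgeR for every tested gene of the 7 genes' list and of 7 pathway lists, with the number of tested genes in brackets. Filled points have an adjusted p under 0.05, black bars are list medians and the dashed line is the median over all genes tested (0.02). The point at the far right is Clec4n, which had no reads in naïve mice, so that its fitted value depends on the prior count.

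Of the 7 genes 4 lie within 1 stretch of chromosome 1, from the start of Fcgr2b to the end of Fcer1g (chr1:170960558-171234349, GRCm38.p6), in the order Fcgr2b, Fcgr4, Fcgr3, Fcer1g. Fcer1a lies farther along that chromosome, Fcgr1 is on chromosome 3 and Tyrobp on chromosome 7. The other 4 tested genes within the stretch, Cfap126, Sdhc, Nr1i3 and Tomm40l, had log2 fold changes of 1.32 ± 0.44, 0.34 ± 0.25, -0.75 ± 0.62 and -0.12 ± 0.28, and none was called by edgeR (adjusted p of 0.0850 to 0.825). Fcgr3 overlaps 3 tRNA genes and a miRNA gene in the annotation and Fcgr4 a small nuclear RNA gene, and reads of such overlaps could not be separated without a known strand setting.

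Promoters are shown for the 3 activating Fcγ receptors because they share a short word near the start. Of the 7 genes 6 had promoters in RefSeq (GRCm38.p6), and the 250 bases before the start were searched on both strands for GAGGAAG, the core of sites of the myeloid factor PU.1, and for AGATAA, a site of GATA factors. GAGGAAG occurred in 10.4% and AGATAA in 10.3% of 27025 promoters. The first was present in Fcgr1, Fcgr3 and Fcgr4, each time on the opposite strand and 56, 7 and 23 bases before the start, and absent from Fcer1g, Fcgr2b and Fcer1a. The second was present only in Fcer1a, 92 bases before the start, and no match of one overlapped the other. The match is in capitals below, as it reads on the strand of the gene (CTTCCTC). For Fcgr3 the first of 2 annotated starts is shown. Both lie inside the annotated gene, whose 5′ end is at chr1:171065915. A match of these letters is a description and does not show binding:
Fcgr1 chr3:96293970-96294219 (minus strand): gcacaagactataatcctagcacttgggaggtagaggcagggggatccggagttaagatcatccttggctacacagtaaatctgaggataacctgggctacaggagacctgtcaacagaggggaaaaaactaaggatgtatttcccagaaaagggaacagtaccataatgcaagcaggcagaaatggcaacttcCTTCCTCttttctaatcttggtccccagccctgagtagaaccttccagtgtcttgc
Fcgr3 chr1:171059404-171059653 (minus strand): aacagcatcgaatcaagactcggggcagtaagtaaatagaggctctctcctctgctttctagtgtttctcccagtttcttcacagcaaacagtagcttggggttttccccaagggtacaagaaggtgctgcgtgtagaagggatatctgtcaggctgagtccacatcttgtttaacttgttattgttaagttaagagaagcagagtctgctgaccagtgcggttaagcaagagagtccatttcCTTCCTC
Fcgr4 chr1:171018676-171018925 (plus strand): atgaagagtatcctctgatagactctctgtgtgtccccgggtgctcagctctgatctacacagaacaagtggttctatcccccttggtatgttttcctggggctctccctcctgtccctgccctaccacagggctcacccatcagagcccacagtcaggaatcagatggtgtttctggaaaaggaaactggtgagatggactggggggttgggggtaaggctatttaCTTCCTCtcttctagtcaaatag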

How the data were processed

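EM γδ T cells from 5 naïve and 5 pre-exposed mice were profiled by RNA-sequencing. The authors mapped paired reads with Subread (genome mm10) and used featureCounts to assign them to Entrez genes. They deposited whole-number counts, which are not normalized, and the gene length. Neither tool versions nor a strand setting is given in the sources consulted here, and the methods and the labels name different library kits. The files hold 27179 genes, of which 25275 had a symbol in RefSeq for GRCm38.p6. filterByExpr kept 13534, and 12655 were tested after 767 genes without a symbol and 112 immunoglobulin genes were left out.

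After TMM scaling, counts entered the quasi-likelihood test of edgeR 4.0.16 (R 4.3.3, robust, newer dispersion method), and voom followed by TREAT tested against a fold change of 1.5 (limma 3.58.1). P-values were adjusted by Benjamini and Hochberg over all genes tested, with calls at 0.05, and each test was two-sided. SE was taken as the log2 fold change over the root of edgeR's F. Exact permutation tests compared mean log2 CPM with a prior count of 2. The length trend was fitted by loess in each library (span 0.3) and applied as an offset. Both tests were run on simulated counts, with pass limits set for edgeR only, and the outcome is not given here. Alternatives were DESeq2 1.42.0, other scalings, filters and dispersion methods, the replicate number as a block, subsets of mice and each library left out. Keeping unannotated and immunoglobulin genes in TREAT, leaving out pre-exposed mouse 5 with naïve mouse 3, and marker sums without 1 dominant gene (Ccr2, Kit or Klre1) were chosen after seeing the data. Depth limits precision, since 0 counts allow up to 3 at 95% confidence (counting error only).

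The members and the gene lists were chosen with earlier results of these data known. Genes are named by rule: the 7 members, of every other list the up to 4 tested genes with the smallest edgeR p, and for each tested member the 3 genes with the nearest profile. Blnk, Csf1r, Mcpt8, Ms4a2, Cd247, Trdc, Cd79b, Zap70, C1qa, Cd14, Pax5, Ccr2, Mcpt4, Klk1, Cox6a2 and the neighbours on chromosome 1 fall outside it and were chosen after their values were seen. Pira6 and Lilrb4b of the lists were not found by symbol in the table. Every pair of libraries within a group differed beyond sampling noise, with a chi-square of 22.6 or more per gene.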

Additional observations from a re-analysis of the deposited data

Results flagged for a closer look

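Among 46 groups of 5 libraries examined, for the members and for the sums of the lists, 5 had 1 library farther from the others than Dixon's 95% critical value allows. Chance alone flags about 1 in 20 groups. Fcer1g was 720 CPM in pre-exposed mouse 2, against 235 to 325 CPM in the other pre-exposed mice. Fcer1a was at 0 in pre-exposed mouse 5, against 5.76 to 17.2 CPM in the others. The 10 mast cell and basophil markers summed to 24.5 CPM in that same mouse and to 72.2 to 101 CPM in the others, and without Kit to 20.5 CPM and to 41.4 to 88.0 CPM. The 7 other signalling adaptors, which are dominated by the CD3 chains, summed to 2435 CPM in pre-exposed mouse 1, against 6290 to 7294 CPM in the others. The phosphatases and SH2 adaptors summed to 1938 CPM in pre-exposed mouse 4, against 1460 to 1580 CPM in the others. No cause of these values was tested.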

How the results depend on the processing

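For single members edgeR's verdict was the same in 107 comparisons with an alternative and weaker in 25, and no direction was reversed. Fcgr1 could be fitted only without the filter, at a log2 fold change of 7.45 (adjusted p = 0.0283 by edgeR), a value that depends on the prior count because all naïve libraries were at 0. Of the 7 genes 7 had an exact permutation p under 0.05 with a prior count of 2 and 6 with one of 0.5. Of the 6 tested members, 3 (Fcer1g, Tyrobp and Fcgr2b) were called by edgeR with the older dispersion method, 0 in pre-exposed mice 1 and 5, with 6 at an unadjusted p under 0.05, and 3 to 6 with each library left out. TREAT called 0 of them in the main analysis, 5 with sample quality weights, 5 in pre-exposed mice 2 to 4 and 0 to 3 with each library left out. Over all genes, the 797 edgeR calls became 358 with the older dispersion method, 1350 with DESeq2, 214 after removal of the length trend, 23 in pre-exposed mice 1 and 5 and 3777 in mice 2 to 4. They ranged from 53 (without naïve mouse 1) to 1870 (without pre-exposed mouse 5). The 2 TREAT calls became 287 with quality weights, 1 in pre-exposed mice 1 and 5, 591 in mice 2 to 4 and 0 to 137 with each library left out. Except where the samples or the variance model changed by construction, the cause was not tested.

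Samples of the 2 groups with the same replicate number did not deviate together, with correlations of -0.261 to 0.0530, and no sample matched its own number best. With the replicate number as a block edgeR called 55 genes, among them 3 members (Fcer1g, Tyrobp and Fcgr2b), and TREAT called 13 genes, among them 2 members (Fcer1g and Fcgr2b). Among the other named genes Klre1, which was not called, reversed to -0.10 in pre-exposed mice 2 to 4 and to -0.094 without pre-exposed mouse 5 and naïve mouse 3. With each library left out it ranged from -0.22 (without pre-exposed mouse 5) to 1.27 (without pre-exposed mouse 2). Cd22, also not called, reversed to 0.0029 with the length trend removed. Low counts limit the Fcγ receptors and Fcer1a most, since naïve libraries held 0 to 86 reads of each.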
